A study of Mus musculus with 24 samples.

Results

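The genes described here are 52 cell cycle and DNA replication genes of the mouse, picked by symbol out of the 25385 genes listed for every library, with all transcripts of a symbol summed. They comprise 20 S-phase and replication genes, 19 mitotic genes, 9 regulators of G1 and 4 transcription factors. They were measured by RNA-seq in marrow-derived mesenchymal stem cells (MSC), adherent cells of the marrow stroma able to turn into bone-forming or fat-storing cells, which came from another laboratory as frozen stocks of low passage. The 8 groups had 3 libraries each. Adipogenic cells were kept for 7 days after confluence in medium with insulin, indomethacin and dexamethasone, and osteogenic cells for 7 or 15 days in medium with beta-glycerophosphate and ascorbic acid. Undifferentiated cells were taken at day 0. In each of these 4 states one group had 100 nM 1,25(OH)2D3 (VD3, the hormonal form of vitamin D) for 24 hours and the other had ethanol vehicle for the same 24 hours. All groups shared the parent cells and the base medium with serum. Day 0 is the lone undifferentiated time point, so a medium and the time spent in it cannot be told apart there, and the labels do not say whether replicates were separate cultures.

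A cell that commits to divide moves from G1 into S phase, where the MCM helicase opens the DNA and polymerases copy it, and then through G2 into mitosis. D-type cyclins with Cdk4 start S phase entry by phosphorylating the retinoblastoma protein, which frees E2F factors to switch on S-phase genes, and the inhibitors Cdkn1a (p21) and Cdkn1b (p27) oppose it. Mitotic genes are switched on later, largely by the MuvB complex with Mybl2 and Foxm1. Stromal cells leave the cycle on confluence and in differentiation, and adipocyte precursors are known in culture to divide for a short time before they differentiate for good.

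Values are RPKM (reads scaled to transcript length and to the mapped reads of the library) as the authors deposited them, summed over the transcripts of a symbol. The scaling to length lets levels of different genes be set side by side, with a limit. How reads shared by transcripts were counted is not given, so genes with several transcripts, such as Tpx2 with 5 and Uhrf1 with 4, may come out too high. Log2 values are differences between group means of log2(RPKM + 1), where changes of low genes come out too small. "Rose" and "fell" stand for an adjusted p under 0.05 in limma. Estimated depth was 7.13 to 46.9 M reads a library, and the lowest correlation between libraries of a group was 0.926. Of the 6 libraries taken at day 0, 5 differed from all 19 others in their reads on silent genes. Their median over 1466 olfactory, vomeronasal and taste receptor genes was 3.39 to 4.95 RPKM, against 0.208 to 1.31 RPKM in the rest, and their estimated depth was 7.13 to 11.01 M reads, against 11.97 to 46.9 M. The remaining day 0 library was VD3 replicate 2. Of the stromal markers Pdgfra, Pdgfrb, Cxcl12 and Vcam1 were above 6 RPKM in every group mean (Pdgfra at 8.37 RPKM in adipogenic vehicle cells and 70.3 RPKM at day 0), whereas Thy1 averaged at most 1.06 RPKM and Eng at most 1.55. Lepr averaged at most 3.69 RPKM, and group means ran from 0.943 to 8.55 RPKM for Nt5e, 2.55 to 25.2 for Cd44 and 4.44 to 47.2 for Ly6a. No blood cell marker averaged above 2.70 RPKM (Emr1 in day 0 vehicle cells), and Ptprc averaged at most 2.30 RPKM. In vehicle cells the 9 blood cell markers summed to means of 11.2 RPKM at day 0, 2.49 and 1.88 on osteogenic days 7 and 15, and 5.02 in adipogenic cells. The endothelial marker Kdr averaged 12.4 RPKM in osteogenic day 15 vehicle cells, and the other endothelial markers at most 1.605. The adipocyte gene Fabp4 averaged 22526 RPKM in adipogenic vehicle cells and 50.97 RPKM at day 0. The p-values given here rest on the spread among libraries of a group, which may be technical.

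In day 0 vehicle cells every one of the 48 S-phase, mitotic and G1 genes averaged more than 2 RPKM. The median over the silent receptor genes was 4.19, 3.52 and 4.95 RPKM in these same libraries. Members with means near or under it, such as Cdt1 and Ccnd3, do not stand above the signal on silent genes there. The S-phase genes had a median of 10.6 RPKM, between 2.55 RPKM for the licensing factor Cdt1 and 55.4 RPKM for Pcna, the sliding clamp of the replication fork. The mitotic genes had a median of 11.97 RPKM, between 4.37 RPKM for Ccnb2 and 40.0 RPKM for Top2a. The G1 regulators ranged more widely, with 3.07 RPKM for Ccnd3 and 135 RPKM for Ccnd1. The transcription factors were low, with E2f1 highest at 3.19 RPKM and E2f2 lowest at 0.745 RPKM. E2f2, an activator E2F, reached 1 RPKM in too few libraries to be tested, so 51 members were tested.

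Mitotic genes were at their lowest in adipogenic cells. Top2a, the topoisomerase that untangles sister DNA, had 3.90, 3.98 and 4.44 RPKM in adipogenic vehicle cells, against 41.1, 37.7 and 41.3 RPKM in day 0 vehicle cells. The highest adipogenic library was thus far below the lowest day 0 library, and the mean was 9.76-fold lower (log2 -3.01, SE 0.09, adjusted p = 2.26e-17 in limma). Ccnb1, the cyclin that drives entry into mitosis, had 3.28, 2.43 and 3.69 RPKM in adipogenic cells, against 24.7, 24.7 and 26.5 at day 0. Its groups did not overlap either (log2 -2.68, SE 0.12, adjusted p = 1.24e-14 in limma). Mki67, which encodes the Ki-67 protein that coats mitotic chromosomes, had 2.10, 3.37 and 3.03 RPKM in adipogenic cells, against 19.6, 17.1 and 17.7 at day 0. Adipogenic libraries again lay below every day 0 library, and the mean was 6.399-fold lower (log2 -2.33, SE 0.14, adjusted p = 1.94e-12 in limma). The largest mitotic fall was that of Ccna2, the cyclin of S phase and G2 (2.30 ± 0.202 RPKM in adipogenic cells and 26.2 ± 1.14 at day 0, SD, n = 3 each; log2 -3.05, SE 0.12, adjusted p = 1.77e-15 in limma). In bulk libraries fewer dividing cells and less of each RNA per cell cannot be told apart.

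**Figure D1:**
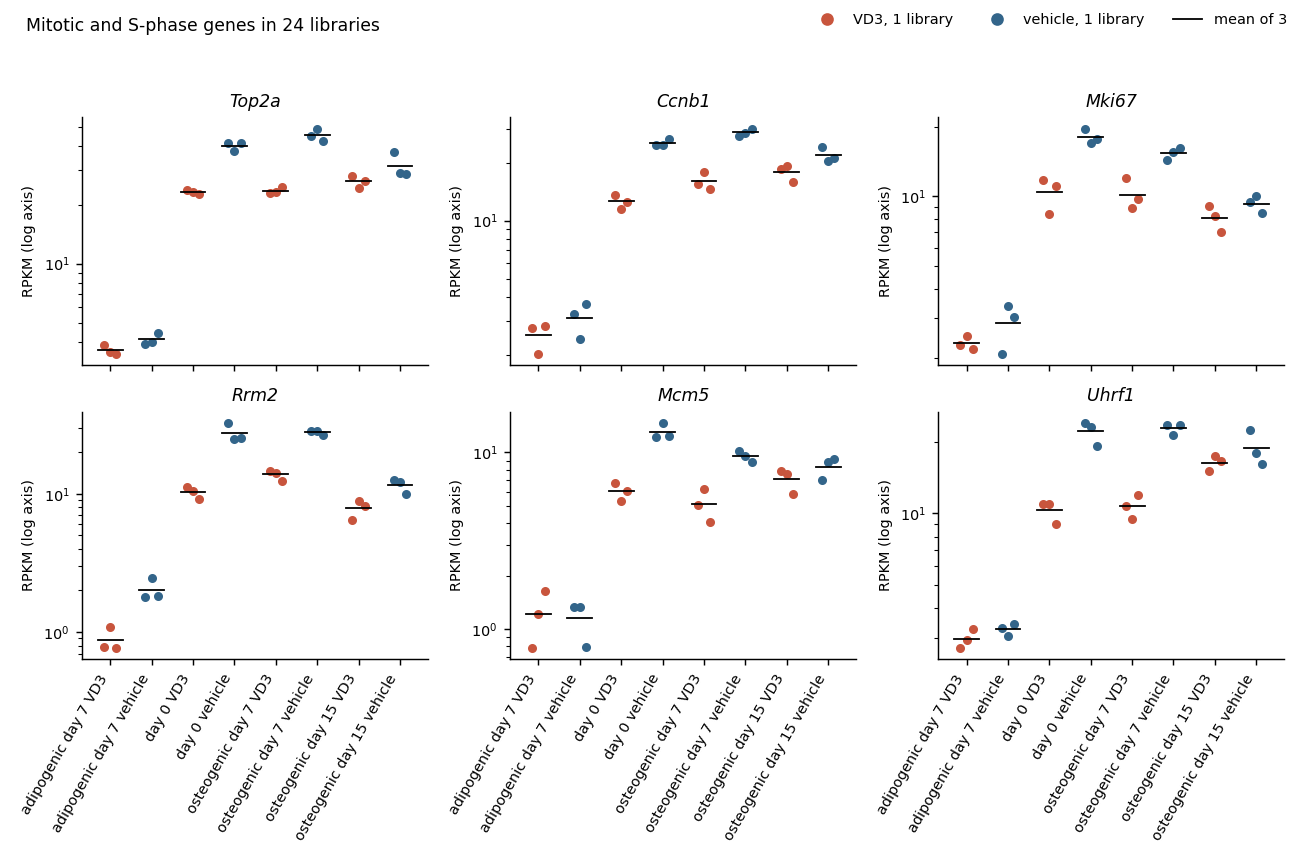
RPKM on a log axis of 3 mitotic genes (upper row) and 3 S-phase genes (lower row) in 24 libraries, with a point for each library and a bar for the mean of 3. All 6 genes are lowest in the adipogenic groups, where the vehicle libraries of Top2a lie between 3.90 and 4.44 RPKM, and VD3 points lie below vehicle points at day 0 and on osteogenic day 7.

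All 19 mitotic genes fell in adipogenic vehicle cells against day 0, where over all members 45 of the 51 tested fell and 2 rose. Of all 21097 genes tested 78.6% were called, 65.5% lower and 13.2% higher, so a fall alone sets no member apart. After subtraction of the receptor gene median, 29 members fell (14 mitotic and 12 S-phase) and 5 rose. The median ratio of means was 0.124 over the mitotic genes, with a range of 0.0876 (Ccna2) to 0.219 (Cenpf), a kinetochore protein. The median log2 difference was -2.26 over the mitotic genes, -1.57 over the S-phase genes and -0.83 over all genes tested. The spindle motor Kif11 (2.49 ± 0.365 RPKM in adipogenic cells and 20.2 ± 1.23 at day 0), the checkpoint kinase Bub1b (1.29 ± 0.0446 and 12.9 ± 0.779) and Aurka, a kinase of the spindle poles (1.66 ± 0.229 and 11.97 ± 1.45), were among the others that fell. The 6 adipocyte markers alone summed to between 30506 and 32600 RPKM in adipogenic vehicle libraries, against 298 to 326 RPKM at day 0, and the part of such abundant genes in the RPKM of other genes was not tested. The mesenchymal stromal markers summed to 89.4, 107 and 93.7 RPKM in adipogenic vehicle libraries, against 1207, 1218 and 1216 RPKM at day 0, and the part of this in the falls was not tested either. With 5 of the 6 day 0 libraries standing apart, the comparison was repeated among VD3-treated cells with the remaining day 0 library alone, where that single library is taken to vary as the other groups do. All 19 mitotic and 16 of 20 S-phase genes fell there, and the median over all genes was then 0.11.

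The RefSeq promoter table (build GRCm38.p6, 250 bases before to 50 after each start) held 15 of the 19 mitotic genes and 16 of the 20 S-phase genes. The cell cycle homology region (CHR) is a motif bound by the MuvB complex. The letters TTTGAA, searched on both strands, were in a window of 11 of 15 mitotic genes (73.3%), of 1 of 16 S-phase genes and in 17.9% of all 32851 windows. A gene counted if any of its windows held the letters, so shares of genes and of single windows are unlike measures. The CCAAT box (CCAAT, both strands), bound by the factor NF-Y, was in a window of 14 of 15 mitotic and 11 of 16 S-phase genes and in 37.4% of all windows. The stretches below come from 4 of the 11 genes with the letters, picked after their values were seen. These 4 genes fell in adipogenic cells and also after VD3 at day 0 and on osteogenic day 7. So did Aurka and Mki67, which hold the letters and are not shown, and Ccnb1 and Bub1, whose windows lack them. The stretches run 5′ to 3′ on the strand of the gene, with TTTGAA or its reverse complement TTCAAA in capitals, and a further match in the Top2a window lies outside the stretch. Top2a lies at chr11:99024182-99024287 (- strand), Kif11 at chr19:37376338-37376393 (+ strand), Bub1b at chr2:118598226-118598260 (+ strand) and Cdc20 at chr4:118437331-118437386 (- strand).
Top2a: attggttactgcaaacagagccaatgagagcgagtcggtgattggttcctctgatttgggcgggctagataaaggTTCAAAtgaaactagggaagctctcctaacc
Kif11: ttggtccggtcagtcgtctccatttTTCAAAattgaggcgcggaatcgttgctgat
Bub1b: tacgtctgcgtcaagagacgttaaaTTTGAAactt
Cdc20: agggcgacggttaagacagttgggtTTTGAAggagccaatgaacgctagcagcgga
A match is a description of the letters and was not tested as a site. The build differs from the mm9 build of the expression values, and genes were matched by symbol.

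S-phase genes also fell in adipogenic cells, with a smaller median change. Rrm2, the ribonucleotide reductase subunit made in S phase, had 1.78, 2.45 and 1.82 RPKM in adipogenic vehicle cells, against 32.4, 25.0 and 25.2 in day 0 vehicle cells. The sets of libraries were far apart, and the fall was the largest of all 51 members tested (log2 -3.24, SE 0.13, adjusted p = 2.01e-15 in limma). Mcm5, a subunit of the replicative helicase, had 1.34, 1.34 and 0.791 RPKM in adipogenic cells, against 12.3, 14.7 and 12.3 at day 0. Every adipogenic library was below 2 RPKM and every day 0 library above 12 RPKM, and the mean was 11.3-fold lower (log2 -2.71, SE 0.16, adjusted p = 2.68e-12 in limma). Uhrf1, which carries DNA methylation to the new strand, had 3.29, 3.06 and 3.45 RPKM in adipogenic cells, against 24.0, 23.1 and 19.2 at day 0. Its groups did not overlap (log2 -2.43, SE 0.12, adjusted p = 5.75e-14 in limma).

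All 20 S-phase genes fell, with ratios of means between 0.0732 (Rrm2) and 0.564 (Gins1) and a median of 0.253. The count was 18 under median ratio, 17 under quantile normalization, 12 after subtraction of the receptor gene median and 19 without day 0 replicate 1 or adipogenic replicate 2, where the Gins1 call was lost (adjusted p = 0.134 and 0.148). By the ratio of means the smallest falls were those of Gins1, a part of the GINS complex of the helicase (5.74 ± 1.81 RPKM in adipogenic cells and 10.2 ± 3.39 at day 0; log2 -0.72, SE 0.28, adjusted p = 0.0240 in limma), of Mcm7 (10.3 ± 0.567 and 19.8 ± 1.59; log2 -0.88, SE 0.10, adjusted p = 1.47e-07 in limma) and of Pcna (22.2 ± 0.289 and 55.4 ± 7.55; log2 -1.27, SE 0.13, adjusted p = 1.39e-08 in limma). Subunits of one helicase therefore fell by unequal amounts, from -2.71 for Mcm5 and -2.32 for Mcm6 to -1.35 for Mcm2 and -0.88 for Mcm7 on the log2 scale. Replication-dependent histone genes, whose RNA accumulates in S phase and carries no poly(A) tail, could be followed because the libraries were depleted of ribosomal RNA and not selected for poly(A). The 64 histone symbols summed to 2832, 2677 and 2843 RPKM in adipogenic vehicle cells, against 9999, 9079 and 8899 RPKM at day 0. The groups did not overlap, and the exact two-sided permutation test gave p = 0.1, the smallest that 3 against 3 libraries allow.

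**Figure D2:**
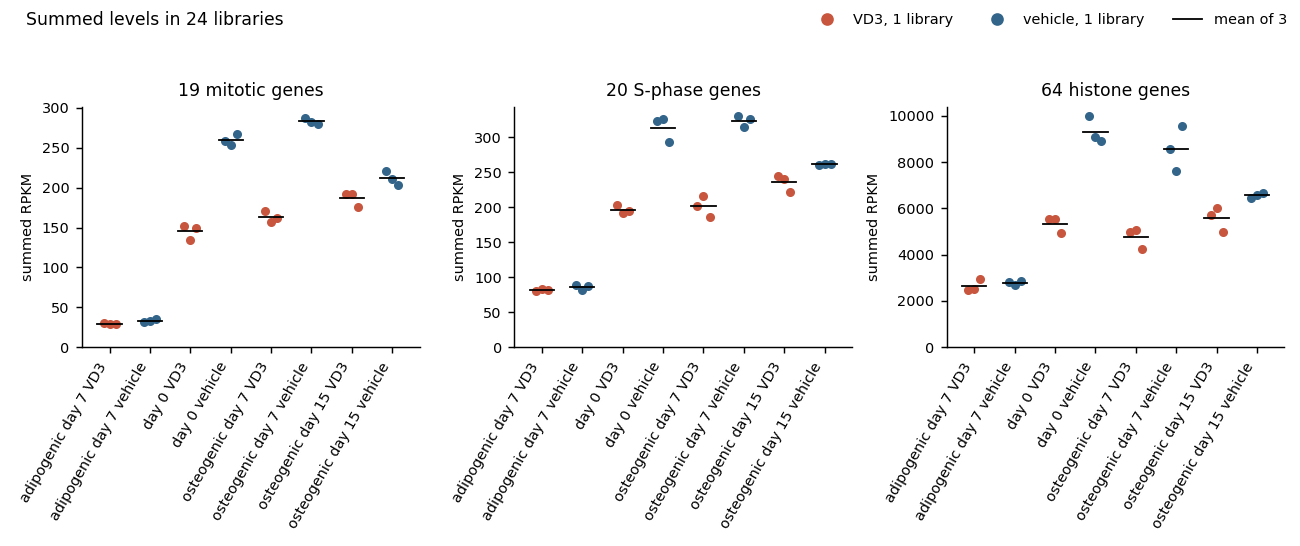
Summed RPKM of the 19 mitotic genes, the 20 S-phase genes and 64 histone genes in each of 24 libraries (points), with the mean of 3 as a bar and the axis starting at 0. Adipogenic libraries are lowest in each panel, and VD3 libraries lie below vehicle libraries at day 0 (mitotic sums of 134 to 152 RPKM with VD3, against 254 to 268 RPKM with vehicle) and on osteogenic day 7 (157 to 170 RPKM, against 280 to 288 RPKM).

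Promoter windows of S-phase genes held another motif. Any of the E2F letters TTTCCCGC, TTTGGCGC, TTTCGCGC and TTTGCCGC, searched on both strands, was in a window of 9 of 16 S-phase genes, of 0 of 15 mitotic genes and in 2.27% of all single windows. The 4 stretches below come from 4 of the 9 genes with the letters, picked after their values were seen. These 4 genes, 3 of them helicase subunits, fell in adipogenic cells and after VD3 in both of the states named above. So did Mcm7 and Uhrf1, which hold the letters and are not shown, and Rrm1, Rrm2 and Pcna, whose windows lack them. Matches on either strand are in capitals, and in Mcm5 and Mcm6 a match on one strand overlaps a match on the other. Mcm5 lies at chr8:75109331-75109392 (+ strand), Mcm6 at chr1:128359720-128359840 (- strand), Mcm3 at chr1:20820263-20820318 (- strand) and Pola1, the catalytic subunit of DNA polymerase alpha, at chrX:93632261-93632318 (- strand).
Mcm5: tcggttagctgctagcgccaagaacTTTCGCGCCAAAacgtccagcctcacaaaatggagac
Mcm6: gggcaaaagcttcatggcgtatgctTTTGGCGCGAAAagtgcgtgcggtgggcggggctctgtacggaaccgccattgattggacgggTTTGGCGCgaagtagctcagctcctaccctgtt
Mcm3: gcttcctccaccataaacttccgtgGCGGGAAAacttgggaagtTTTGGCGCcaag
Pola1: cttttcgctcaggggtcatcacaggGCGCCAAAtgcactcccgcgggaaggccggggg

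S-phase and mitotic RNA was also lower in adipogenic cells than in osteogenic cells. On day 7, 47 of 51 members were lower in adipogenic than in osteogenic vehicle cells and 0 were higher (1 at an unadjusted p under 0.05 in limma), where 37.8% of all genes were called, 25.4% lower and 12.4% higher. Neither group holds a library that stood apart in receptor gene reads. All 19 mitotic genes were lower, with a median ratio of 0.121, and all 20 S-phase genes, with a median ratio of 0.266. Ccna2 averaged 2.30 ± 0.202 RPKM in adipogenic cells and 30.1 ± 4.14 in osteogenic cells (log2 -3.23, SE 0.12, adjusted p = 4.48e-16 in limma), and Rrm2 averaged 2.02 ± 0.376 and 27.7 ± 1.08 (log2 -3.26, SE 0.13, adjusted p = 1.29e-15 in limma). Against osteogenic day 15, 44 members were lower and 0 higher (0 at an unadjusted p under 0.05), where 38.4% of all genes were called, 26.3% lower and 12.1% higher. The median ratio there was 0.149 for mitotic and 0.312 for S-phase genes, though the culture times of these 2 groups differ.

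On osteogenic day 7 S-phase and mitotic RNA, in the values as deposited, was near the day 0 level. Mki67 had 14.4, 15.5 and 16.2 RPKM on osteogenic day 7, against 19.6, 17.1 and 17.7 at day 0, and Ccnb1 had 27.6, 28.6 and 30.1, against 24.7, 24.7 and 26.5. Neither difference passed the test (adjusted p = 0.156 for Mki67 and 0.193 for Ccnb1 in limma). In all 8 members rose and 5 fell, where 64% of all genes were called, 13.6% higher and 50.4% lower. The receptor gene signal was also higher at day 0, and its part in these shares was not tested. The median log2 difference was 0.02 over S-phase genes and 0.13 over mitotic genes, whereas it was -0.46 over all genes tested. The called mitotic genes were Kif11 (25.6 ± 3.11 RPKM on osteogenic day 7 and 20.2 ± 1.23 at day 0; log2 0.33, SE 0.11, adjusted p = 0.0118 in limma) and the kinase Aurkb (6.14 ± 0.566 and 4.46 ± 1.01; log2 0.40, SE 0.17, adjusted p = 0.0477 in limma), which rose. Among S-phase genes Cdt1 (0.56 on the log2 scale) and Pcna (0.31) rose, while the ligase Lig1 (-0.64), the loading factor Cdc6 (-0.46) and Mcm5 (-0.42) fell. The call was lost for Kif11 without day 0 replicate 3 or day 7 replicate 1, for Cdt1 without day 0 replicate 1 or 3 or day 7 replicate 3, for Pcna without day 0 replicate 3 or day 7 replicate 1 or 2, for Cdc6 without day 0 replicate 2 or day 7 replicate 1 or 2, for Mcm5 without day 0 replicate 2 or day 7 replicate 2 or 3, and for Aurkb without any of 5 libraries (all but day 0 replicate 3), at adjusted p of up to 0.211 (Cdc6). After rescaling by median ratio 36 members rose and 0 fell, and after quantile normalization, where Cdc6 and Lig1 turned positive, 16 rose and 3 fell.

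By osteogenic day 15 the levels were lower in vehicle cells. Rrm2 had 12.5, 12.1 and 9.99 RPKM on osteogenic day 15, against 28.5, 28.2 and 26.5 on osteogenic day 7. Every day 15 library lay below every day 7 library, and Rrm2 had the largest fall among the members (log2 -1.20, SE 0.13, adjusted p = 6.35e-07 in limma). Tk1, the thymidine kinase of S phase, had 3.41, 1.95 and 2.39 RPKM on day 15, against 6.04, 7.06 and 5.47 on day 7, again without overlap (log2 -1.02, SE 0.21, adjusted p = 0.00161 in limma). Ccna2 had 19.7, 15.1 and 16.1 RPKM on day 15, against 28.2, 34.8 and 27.2 on day 7, and was the largest mitotic fall (log2 -0.79, SE 0.12, adjusted p = 6.17e-05 in limma). In all 15 members fell (5 S-phase, 9 mitotic and Ccnd1) and 1, Ccnd2, rose, where 13.3% of all genes were called, 6.47% lower and 6.87% higher. The median ratio was 0.728 over mitotic and 0.850 over S-phase genes. The call of Ccnd2 was lost without day 15 replicate 2 (adjusted p = 0.0588). Leaving out a vehicle library gave 9 to 13 calls, with 9 without osteogenic day 7 replicate 1 and 10 without day 7 replicate 2 or day 15 replicate 2. With VD3 the direction of the sums turned. The mitotic genes summed to a mean of 186 RPKM on day 15 and 163 RPKM on day 7, and the S-phase genes to 236 and 201 RPKM.

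Against day 0, osteogenic day 15 had 19 members lower and 5 higher, where 70.9% of all genes were called, 53.4% lower and 17.5% higher, so the share of members that fell was below the background. Mki67 averaged 9.29 ± 0.781 RPKM on osteogenic day 15 and 18.1 ± 1.32 at day 0 (log2 -0.89, SE 0.14, adjusted p = 1.58e-05 in limma), and Rrm2 averaged 11.5 ± 1.35 and 27.6 ± 4.21 (log2 -1.18, SE 0.13, adjusted p = 2.07e-07 in limma). Cdt1 (5.18 ± 0.734 RPKM on day 15 and 2.55 ± 1.29 at day 0; log2 0.85, SE 0.20, adjusted p = 0.000975 in limma) and Mcm7 (27.7 ± 1.18 and 19.8 ± 1.59; log2 0.47, SE 0.10, adjusted p = 0.000385 in limma) rose. The split of calls turned with the scaling, to 13 higher and 5 lower under median ratio and 14 each way under quantile normalization. The median log2 difference over all genes was -0.55 as deposited.

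**Figure D3:**
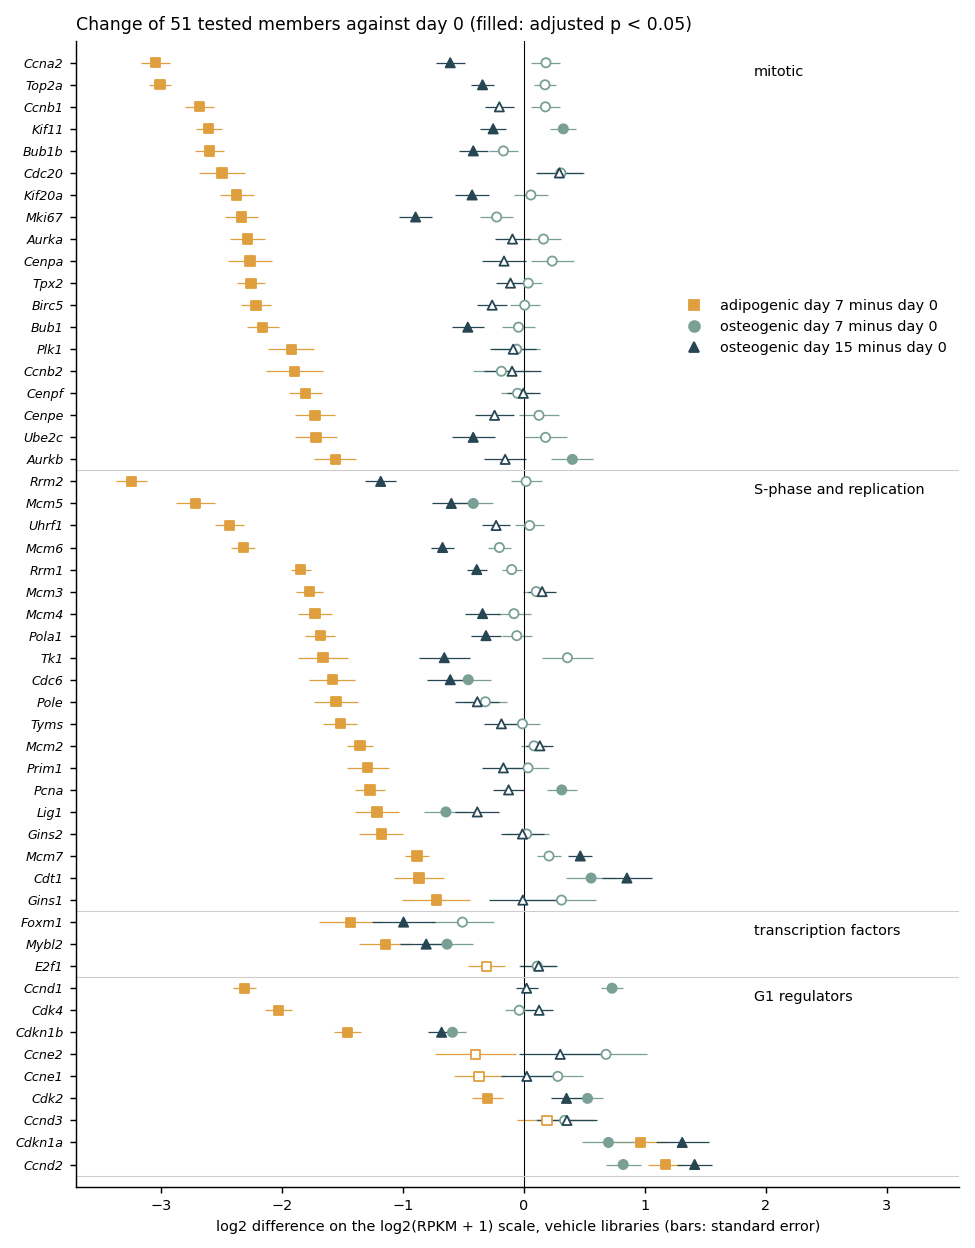
Log2 difference against day 0 of the 51 tested members in vehicle libraries, with standard errors, by class and ordered by the adipogenic change, and with filled symbols for adjusted p < 0.05. Adipogenic squares lie far to the left for mitotic and S-phase genes, while osteogenic day 7 circles lie around 0 and day 15 triangles a little to the left, in these values as deposited (the osteogenic split of calls turns with the scaling), and Ccnd2 and Cdkn1a lie to the right in all 3 states.

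G1 regulators did not move as a block. Ccnd1, the D-type cyclin that answers growth factors, had 25.9, 25.1 and 28.4 RPKM in adipogenic vehicle cells, against 134, 143 and 128 at day 0. The fall left no overlap (log2 -2.31, SE 0.09, adjusted p = 2.05e-15 in limma). In osteogenic cells of day 7 Ccnd1 was higher than at day 0, at 216, 203 and 258 RPKM (log2 0.73, SE 0.09, adjusted p = 3.53e-06 in limma), and on osteogenic day 15 it was at 130.5, 139.6 and 141 RPKM, a difference from day 0 that missed the threshold (adjusted p = 0.834 in limma). Its relative Ccnd2 went the other way in adipogenic cells, with 143, 188 and 155 RPKM, against 71.9, 73.1 and 68.0 at day 0. All adipogenic libraries lay above all day 0 libraries (log2 1.17, SE 0.14, adjusted p = 4.34e-07 in limma), and Ccnd2 also rose on osteogenic day 7 (log2 0.82, SE 0.14, adjusted p = 8e-05 in limma) and day 15 (log2 1.41, SE 0.14, adjusted p = 7.94e-08 in limma). In adipogenic vehicle cells Ccnd2 therefore stood 2.28 times as high as at day 0 while Ccnd1 stood 5.10-fold lower. The third D-type cyclin, Ccnd3, was low in every group and passed no test (log2 0.19 in adipogenic cells, 0.34 on osteogenic day 7 and 0.36 on day 15).

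Cdk4, the kinase partner of the D cyclins, had 18.995, 18.2 and 17.9 RPKM in adipogenic vehicle cells, against 66.9, 79.6 and 88.9 at day 0 (log2 -2.03, SE 0.11, adjusted p = 1e-12 in limma). It was near the day 0 level in osteogenic cells, with log2 -0.04 on day 7 and 0.13 on day 15, neither called. Cdk2, the kinase of cyclins E and A, was at log2 -0.30 in adipogenic cells against day 0 (adjusted p = 0.0369 in limma). That call was lost without day 0 replicate 1 or 3 or adipogenic replicate 1 or 2 (adjusted p = 0.0829, 0.13, 0.109 and 0.0927), and the sign turned under median ratio (0.26), quantile normalization (0.17) and subtraction (0.46). Cdk2 rose on osteogenic day 7 (0.53, adjusted p = 0.00116) and day 15 (0.35, adjusted p = 0.0172). The day 15 call of Cdk2 was lost without day 0 replicate 2 (adjusted p = 0.0864) or day 15 replicate 1 (adjusted p = 0.0913). The E cyclins, which start S phase, were called in neither medium against day 0 and were lower in adipogenic than in osteogenic cells of day 7 (Ccne1 -0.65, adjusted p = 0.0163, and Ccne2 -1.08, adjusted p = 0.0140, or 0.116 without osteogenic day 7 replicate 2).

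The 2 inhibitors moved in opposite directions. Cdkn1a had 14.6, 19.2 and 17.2 RPKM in adipogenic vehicle cells, 12.3, 14.7 and 14.7 on osteogenic day 7 and 16.7, 26.3 and 23.3 on osteogenic day 15, against 6.30, 7.81 and 11.0 at day 0. Each of the 3 differentiated groups lay above day 0 without overlap, with log2 differences of 0.96, 0.70 and 1.31 (adjusted p = 0.000584, 0.00819 and 3.89e-05 in limma). Cdkn1b had 20.2, 16.7 and 22.6 RPKM in adipogenic cells, 36.0, 32.7 and 41.9 on osteogenic day 7 and 31.4, 35.0 and 37.0 on osteogenic day 15, against 53.2, 56.3 and 57.8 at day 0. Each differentiated group lay below day 0, with log2 differences of -1.46, -0.59 and -0.68 (adjusted p = 2.96e-10, 0.000179 and 3.78e-05). Of the 3 differentiated vehicle groups Cdkn1a had its lowest mean on osteogenic day 7 (13.9 RPKM, against 17.0 in adipogenic cells and 22.1 on osteogenic day 15). The part of either inhibitor in the levels of S-phase and mitotic RNA was not tested. The call of Cdkn1a on osteogenic day 7 was lost without day 0 replicate 1 (adjusted p = 0.056) and with only its largest transcript (log2 0.23, adjusted p = 0.6), and those of Cdkn1b in osteogenic cells were lost under median ratio (log2 -0.17 on day 7 and -0.29 on day 15).

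**Figure D4:**
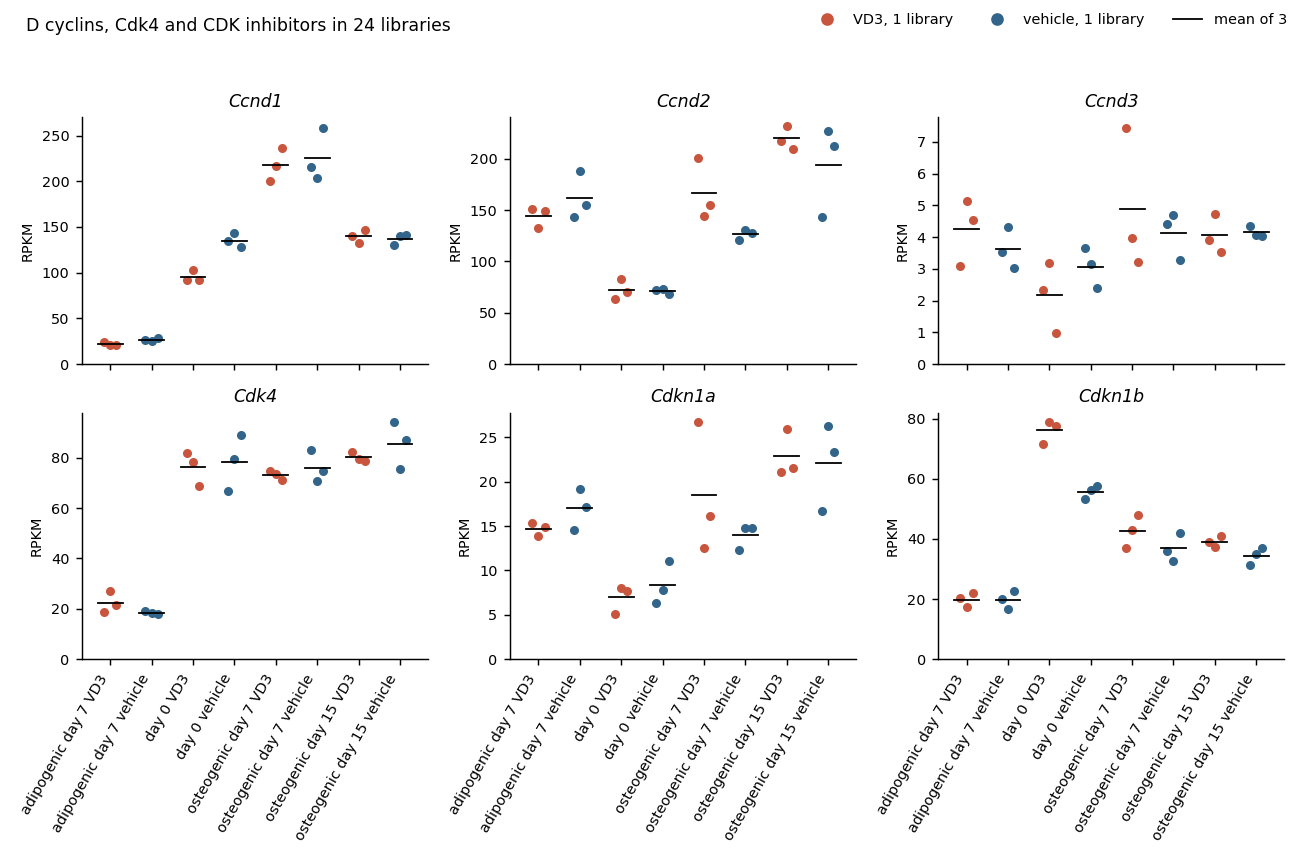
RPKM of the D cyclins, Cdk4 and 2 CDK inhibitors in 24 libraries, with a point for each library, a bar for the mean of 3 and axes starting at 0. Ccnd1 and Cdk4 are lowest in adipogenic cells, Ccnd2 and Cdkn1a are lowest at day 0, and Cdkn1b is highest at day 0 and there higher with VD3.

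The transcription factors were near the lower end of what was tested. Foxm1, a forkhead activator of mitotic genes, had 0.200, 0.129 and 0.201 RPKM in adipogenic vehicle cells, against 1.73, 2.57 and 2.28 at day 0 (log2 -1.43, SE 0.26, adjusted p = 7.53e-05 in limma). Mybl2 (B-Myb), the MuvB partner, had 0.139, 0.239 and 0.103 RPKM in adipogenic cells, against 1.88, 1.28 and 1.55 at day 0 (log2 -1.14, SE 0.22, adjusted p = 0.00011 in limma). Both adipogenic calls were lost under quantile normalization. Both were lower on osteogenic day 15 as well (Foxm1 -0.99, Mybl2 -0.81), but these osteogenic differences turned positive under quantile normalization. In adipogenic vehicle libraries both genes were under 0.3 RPKM. In day 0 vehicle libraries both were under the receptor gene median of the same libraries (3.52 to 4.95 RPKM). Among day 0 VD3 libraries, replicate 2, with few receptor gene reads, had 0.343 RPKM of Foxm1 and 0.404 of Mybl2. Replicates 1 and 3 had 1.10 and 1.31 RPKM of Foxm1 and 1.52 and 1.21 of Mybl2. The part of the receptor gene signal in the falls of both genes was not tested. E2f1, an activator of S-phase genes, averaged 2.37 ± 0.199 RPKM in adipogenic cells and 3.19 ± 0.653 at day 0, a difference that missed the threshold (adjusted p = 0.0739 in limma, and 0.0265 without day 0 replicate 1). It was lower in adipogenic than in osteogenic cells of day 7 (-0.42, adjusted p = 0.0363), a call lost without any of 5 of these 6 libraries (all but osteogenic replicate 1). E2f2 had 0.401, 0.347 and 0.258 RPKM in adipogenic cells, against 0.448, 1.19 and 0.592 at day 0, with no test.

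VD3 for 24 hours lowered S-phase and mitotic RNA in undifferentiated cells. Rrm2 had 11.2, 10.4 and 9.11 RPKM with VD3, against 32.4, 25.0 and 25.2 with vehicle. Every VD3 library was far below the lowest vehicle library, and the mean was 2.70-fold lower (log2 -1.34, SE 0.13, adjusted p = 1.18e-07 in limma). Uhrf1 had 10.9, 10.9 and 9.002 RPKM with VD3, against 24.0, 23.1 and 19.2 with vehicle, and Mcm5 had 6.74, 5.34 and 6.07, against 12.3, 14.7 and 12.3. Neither gene had overlapping groups (Uhrf1 log2 -1.03, SE 0.12, adjusted p = 1.56e-06 in limma; Mcm5 -0.9995, adjusted p = 0.00016). Among mitotic genes Ccnb1 had 13.7, 11.5 and 12.6 RPKM with VD3, against 24.7, 24.7 and 26.5 with vehicle (log2 -0.95, SE 0.12, adjusted p = 5.49e-06 in limma), Cdc20 had 5.80, 5.59 and 6.74, against 11.4, 14.2 and 12.5 (-0.96, adjusted p = 0.00164), and Bub1b had 6.61, 6.28 and 6.41, against 13.1, 12.1 and 13.7 (-0.91, adjusted p = 1.21e-05). All VD3 libraries of these 3 genes lay below all vehicle libraries.

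Of the 51 members 36 fell with VD3 at day 0 and 1, Cdkn1b, rose, where 15% of all genes were called, 11% lower and 3.98% higher. These were 17 of 20 S-phase genes (median ratio 0.637), 17 of 19 mitotic genes (median ratio 0.563), Ccnd1 and E2f1, the last of which was not called without VD3 replicate 2 or vehicle replicate 2 or 3 and turned positive after subtraction of the receptor gene median (0.25). The median log2 difference was -0.57 over S-phase genes, -0.75 over mitotic genes and -0.27 over all genes tested. The 3 S-phase genes not called were Cdt1 (0.43 on the log2 scale), Gins1 (-0.47) and Lig1 (-0.33), and the 2 mitotic genes were Ccnb2 (-0.27) and the centromeric histone Cenpa (-0.40). VD3 replicate 2, the day 0 library with few reads on receptor genes, was below both other VD3 libraries for 27 of the 52 members and above both for 10. It was lowest for 14 of 19 mitotic genes and 4 of 4 transcription factors, and highest for 0 of either class. It was lowest for 8 and highest for 4 of the 20 S-phase genes, and lowest for 1 and highest for 6 of the 9 G1 regulators. The share over all genes is not given here. The mitotic genes summed to 152, 134 and 149 RPKM in VD3 replicates 1, 2 and 3, and the S-phase genes to 203, 192 and 194 RPKM. As the lone VD3 library, replicate 2 gave 35 falls and 1 rise, where 8857 of 20177 genes fell and 802 rose. The mesenchymal stromal markers summed to 632, 691 and 683 RPKM with VD3, against 1207, 1218 and 1216 RPKM with vehicle, and the part of this in the falls was not tested. Without replicate 2, 24 members fell (10 S-phase and 13 mitotic) and 0 rose, and after rescaling by median ratio 14 fell (3 S-phase and 11 mitotic) and 1 rose.

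On osteogenic day 7, where no library had the receptor gene signal seen at day 0, VD3 lowered the same kinds of genes. The receptor gene median was 0.842 RPKM in VD3 replicate 1, against 0.274 and 0.3515 RPKM in VD3 replicates 2 and 3. Top2a had 23.0, 23.2 and 24.5 RPKM with VD3, against 45.1, 48.9 and 42.1 with vehicle. The VD3 libraries were close to each other and all under the vehicle libraries, and the mean was 1.92-fold lower (log2 -0.91, SE 0.09, adjusted p = 5.44e-07 in limma). Ccna2 had 16.8, 14.8 and 12.5 RPKM with VD3, against 28.2, 34.8 and 27.2 with vehicle (log2 -0.99, SE 0.12, adjusted p = 7.76e-06 in limma), and Kif11 had 11.9, 13.5 and 13.1, against 28.8, 25.6 and 22.5 (log2 -0.94, SE 0.11, adjusted p = 3.49e-06 in limma). These 3 mitotic genes had the largest falls of their class, and none had overlapping groups. Of the S-phase genes Gins1 had 3.29, 9.32 and 3.88 RPKM with VD3, against 14.1, 11.4 and 11.99 with vehicle (log2 -1.16, SE 0.28, adjusted p = 0.0144 in limma), Uhrf1 had 10.8, 9.50 and 11.9, against 23.6, 21.3 and 23.6 (log2 -1.02, SE 0.12, adjusted p = 3.17e-06 in limma), and Rrm2 had 14.7, 14.2 and 12.4, against 28.5, 28.2 and 26.5 (log2 -0.96, SE 0.13, adjusted p = 2.74e-05 in limma). Gins1 was uneven among the VD3 libraries, with replicate 2 far above the others, and its call was lost without VD3 replicate 1 (adjusted p = 0.104), VD3 replicate 3 (0.0803) or vehicle replicate 1 (0.0711), while Uhrf1 and Rrm2 were even.

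In all 28 members fell on osteogenic day 7 and 0 rose (1 at an unadjusted p under 0.05 in limma), where 5.26% of all genes were called, 2.35% lower and 2.91% higher. They were 14 S-phase genes (median ratio 0.647 over the 20) and 14 mitotic genes (median ratio 0.608 over the 19). The median log2 difference was -0.57 and -0.63 in these classes, whereas it was 0.07 over all genes. Of the members that fell, 26 fell at day 0 as well, 72.2% of the 36 there and 92.9% of the 28 here. Cenpa and Gins1 were called here and not at day 0, and Plk1, a kinase of mitotic entry (-0.39, adjusted p = 0.337), and Cdc6 (-0.34, adjusted p = 0.452) were among the 10 called at day 0 and not here. The difference of the VD3 effect between osteogenic day 7 and day 0 was called for 0 members (2 higher and 1 lower at an unadjusted p under 0.05), where 2.55% of all genes were called, 1.85% higher and 0.702% lower. After subtraction of the median of the receptor genes from each library 11 members fell on osteogenic day 7.

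On osteogenic day 15 VD3 changed 0 members (0 higher and 9 lower at an unadjusted p under 0.05 in limma), where 0.773% of all genes were called, 0.526% higher and 0.246% lower. Top2a had 28.2, 24.3 and 26.6 RPKM with VD3, against 37.2, 28.9 and 28.6 with vehicle, and all VD3 libraries lay below all vehicle libraries, but the difference missed the threshold (log2 -0.25, adjusted p = 0.525). Rrm2 came nearest, with 6.48, 8.88 and 8.17 RPKM with VD3, against 12.5, 12.1 and 9.99 with vehicle, without overlap (log2 -0.51, SE 0.13, adjusted p = 0.0801 in limma). The median ratio was 0.872 over mitotic and 0.927 over S-phase genes. With a filter at 5 RPKM, which tests fewer genes, 1 member passed.

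In adipogenic cells VD3 lowered 1 member, Rrm2, and raised 0 (3 higher and 5 lower at an unadjusted p under 0.05), where 2.08% of all genes were called, 0.574% lower and 1.51% higher. Rrm2 had 0.783, 1.08 and 0.769 RPKM with VD3, against 1.78, 2.45 and 1.82 with vehicle, without overlap (log2 -0.68, SE 0.13, adjusted p = 0.00269 in limma). Top2a had 3.86, 3.53 and 3.48 RPKM with VD3, against 3.90, 3.98 and 4.44 with vehicle, and Ccna2 had 3.25, 3.25 and 2.65, against 2.08, 2.34 and 2.48. Ccna2 was thus higher in each VD3 library, a difference that missed the threshold (log2 0.29, adjusted p = 0.440). With vehicle levels of the mitotic genes between 0.441 and 4.10 RPKM, differences in this state are small on the log2(RPKM + 1) scale. In a fit on the adipogenic libraries alone the Rrm2 call was lost.

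**Figure D5:**
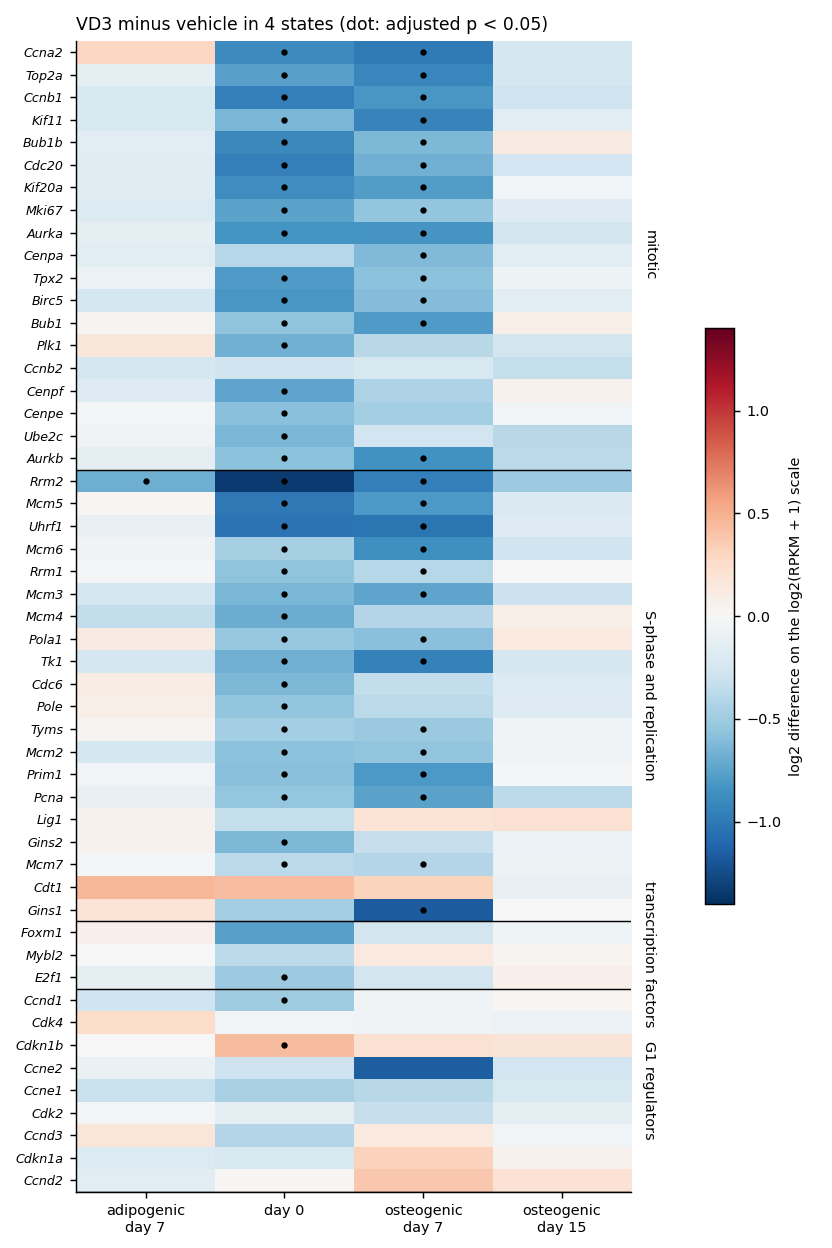
Log2 difference between VD3 and vehicle of 51 members (rows, by class) in 4 states (columns), blue for lower and red for higher with VD3, with a dot for adjusted p < 0.05. Dots fill the mitotic and S-phase rows at day 0 (34 of 39 genes) and on osteogenic day 7 (28 of 39), and 1 dot, for Rrm2, is left in the other 2 states.

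The effect of VD3 differed between states for 13 members. In adipogenic cells it was, on the log2(RPKM + 1) scale, less negative than at day 0 for 10 members, where 3.47% of all genes differed, 2.46% upwards and 1.01% downwards. The largest were Ccna2 (difference of log2 effects 1.18, adjusted p = 0.000188 in limma), Mcm5 (1.03, adjusted p = 0.0120) and Uhrf1 (0.93, adjusted p = 0.00176), and the others were Top2a, Ccnb1, Bub1b, Tpx2, Rrm1, Rrm2 and Pola1. It was less negative than on osteogenic day 7 for 7 members, where 1.82% of all genes differed, 0.967% upwards and 0.853% downwards, with Ccna2 (1.28, adjusted p = 9.51e-05) and Uhrf1 (0.92, adjusted p = 0.00267) again the largest, before Bub1, Mcm6, Top2a, Kif11 and Pola1. Osteogenic day 15 differed from osteogenic day 7 for Uhrf1 (0.84, adjusted p = 0.0287), Kif11 (0.79, adjusted p = 0.0277) and Top2a (0.67, adjusted p = 0.0286), where 0.185% of all genes differed, 0.0521% upwards and 0.133% downwards. These 3 comparisons share groups and are not independent. For Rrm2 the means with VD3 and vehicle were 0.878 and 2.02 RPKM in adipogenic cells, and 10.2 and 27.6 RPKM at day 0. The pseudocount of 1 shrinks the adipogenic difference of Rrm2 more than that at day 0. With a pseudocount of 0.1, 6 differences from day 0 were called, and after rescaling by median ratio 1. Leaving out 1 library gave 7 to 16, with 16 without day 0 VD3 replicate 1. For osteogenic day 15 leaving out 1 library gave 0 to 6 calls, with 0 calls without any of 7 libraries (day 7 vehicle replicate 1 or 2, day 7 VD3 replicate 2, day 15 vehicle replicate 2 or 3, day 15 VD3 replicate 1 or 3), 1 call without day 7 VD3 replicate 1 or day 15 VD3 replicate 2, and 6 without day 7 VD3 replicate 3.

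Histone RNA moved with the S-phase genes. The 64 histone genes summed to 5539, 5525 and 4918 RPKM with VD3 at day 0, against 9999, 9079 and 8899 RPKM with vehicle, and to 4996, 5079 and 4227 RPKM with VD3 on osteogenic day 7, against 8582, 7601 and 9567 RPKM. The groups did not overlap in either state, nor on osteogenic day 15 (5706, 6020 and 4985 RPKM with VD3, against 6448, 6583 and 6648 RPKM with vehicle). Each of these 3 exact two-sided permutation tests gave p = 0.1, the smallest possible, and in adipogenic cells, where the groups overlapped, p = 0.4.

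Among the G1 regulators VD3 changed 2 genes, both at day 0. Cdkn1b had 71.7, 78.9 and 77.7 RPKM with VD3, against 53.2, 56.3 and 57.8 with vehicle. All VD3 libraries were higher (log2 0.44, SE 0.11, adjusted p = 0.0119 in limma), and the call was lost without VD3 replicate 2 (adjusted p = 0.0581). Ccnd1 had 92.1, 103 and 91.6 RPKM with VD3, against 134, 143 and 128 with vehicle, all VD3 libraries being lower (log2 -0.49, SE 0.09, adjusted p = 0.00071 in limma), a call lost under median ratio (log2 -0.25). The p21 gene Cdkn1a was not called in any state, with log2 differences of -0.23 at day 0, 0.32 and 0.06 on osteogenic days 7 and 15 and -0.19 in adipogenic cells. Its VD3 libraries on osteogenic day 7 were uneven (26.7, 12.6 and 16.2 RPKM with VD3, against 12.3, 14.7 and 14.7 with vehicle). Ccnd2 and Ccnd3 were not called with VD3 in any state either, and Cdk4 differences lay between log2 -0.09 and 0.26.

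One other inhibitor rose in all 4 states. Of 12 further CDK and inhibitor genes tested, 3 rose and 0 fell with VD3 at day 0 and 1 rose and 0 fell in each other state. Over all genes 3.98% were higher with VD3 at day 0, 2.91% on osteogenic day 7, 0.526% on osteogenic day 15 and 1.51% in adipogenic cells. The gene raised in all 4 states was Cdkn2b (p15), an inhibitor of Cdk4 and Cdk6. It averaged 80.7 ± 6.08 RPKM with VD3 and 49.3 ± 4.57 with vehicle at day 0 (log2 0.70, SE 0.08, adjusted p = 4.02e-06 in limma), 133 ± 14.2 and 103 ± 6.66 on osteogenic day 7 (log2 0.35, adjusted p = 0.0123), 126 ± 6.17 and 91.9 ± 2.59 on osteogenic day 15 (log2 0.45, adjusted p = 0.00721) and 47.3 ± 1.76 and 33.0 ± 0.861 in adipogenic cells (log2 0.51, adjusted p = 0.000692). Its vehicle level was lowest in the adipogenic state, and its part in the levels of S-phase and mitotic genes was not tested. Cdkn2c (p18), a relative of Cdkn2b, rose with VD3 at day 0 (59.7 ± 7.33 RPKM with VD3 and 42.5 ± 2.09 with vehicle; log2 0.47, SE 0.11, adjusted p = 0.00530 in limma) and was 2.03 times as high in adipogenic vehicle cells as in day 0 vehicle cells (1.00, adjusted p = 7.21e-08).

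Other mitotic and replication genes were counted in the same comparisons. Over all genes 65.5% were lower in adipogenic cells against day 0, and with VD3 11% were lower at day 0 and 2.35% on osteogenic day 7. Of 46 other mitotic genes tested, 44 fell and 0 rose in adipogenic vehicle cells against day 0 (median log2 -1.81), and 30 fell and 0 rose with VD3 both at day 0 (median -0.63) and on osteogenic day 7 (median -0.62). The kinetochore genes Nuf2 and Ndc80 had the largest falls with VD3, Nuf2 at day 0 (log2 -1.13, SE 0.16, adjusted p = 2.54e-05 in limma) and Ndc80 on osteogenic day 7 (log2 -1.14, SE 0.14, adjusted p = 1.04e-05 in limma). Of 37 other replication genes tested, 33 fell and 1 rose in adipogenic cells (median -1.19), 12 fell and 1 rose with VD3 at day 0 (median -0.42), and 10 fell and 0 rose on osteogenic day 7 (median -0.47). Dscc1, a part of the complex that loads Pcna, fell with VD3 at day 0 (-1.21, adjusted p = 0.000144) and on osteogenic day 7 (-0.86, adjusted p = 0.00737). The gene that rose in adipogenic cells was Rfc1, the large subunit of the clamp loader (0.88, adjusted p = 5.21e-06), and with VD3 the single-strand binding protein gene Rpa1 rose at day 0 (0.30, adjusted p = 0.0184) and in adipogenic cells (0.56, adjusted p = 0.000133).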

How the data were processed

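RPKM was deposited by the authors, 1 value per transcript. Reads were aligned with TopHat to mm9 per the submitters' processing notes, which give no version; counting tool, annotation and filters are not given in the sources used here. Per the labels' protocols the libraries were directional and made from RNA depleted of ribosomal RNA. RPKM of transcripts was summed by symbol, and 25 symbols turned into dates were left out. No count was available. Depth was estimated from 150 low values of single-transcript receptor genes of 900 to 1000 bases a library, of which 70.7 to 84.7% lay within 0.1 of a whole read, so whole reads were not recovered and no count test was run.

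The test was limma 3.58.1 (R 4.3.3), applied to log2(RPKM + 1) of the 21097 genes that reached 1 RPKM in 3 or more libraries, with 8 groups over 24 libraries, trended and robust empirical Bayes, Benjamini-Hochberg adjustment over all genes of a comparison and a threshold of 0.05. There were 6 comparisons of vehicle groups, 4 of VD3 with vehicle and 4 of differences between VD3 effects. The test was also run on simulated data with independent noise, the same spread of a gene in all groups and changes planted only in VD3 effects. No simulated library stood apart from its group, so the simulation cannot tell how the test does at day 0. Members, lists, tests and the naming rule (the 3 largest called changes each way per class and comparison, with fixed genes; other members freely) were chosen with earlier results of these data known. Alternatives were another pseudocount, other filters, median ratio and quantile scaling, subtraction of the receptor gene median, a replicate block, the largest transcript, narrower fits, VD3-treated libraries in place of vehicle and leaving out each library; keeping a single day 0 VD3 library (replicate 2) was chosen after seeing the data. Promoter windows came from RefSeq for 40 of 52 members. Python 3.11.15, pandas 2.3.3, numpy 2.4.6, scipy 1.17.1 and matplotlib 3.10.9 were used.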

Additional observations from a re-analysis of the deposited data

Results flagged for a closer look

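For 13 members the test found a VD3 effect that differed between states, in 20 differences of log2 effects, all positive. Adipogenic day 7 against day 0 gave 0.53 for Rrm1, 0.66 for Rrm2, 1.03 for Mcm5, 0.66 for Pola1, 0.93 for Uhrf1, 0.62 for Top2a, 1.18 for Ccna2, 0.74 for Ccnb1, 0.75 for Bub1b and 0.72 for Tpx2. Adipogenic against osteogenic day 7 gave 0.81 for Mcm6, 0.71 for Pola1, 0.92 for Uhrf1, 0.77 for Top2a, 1.28 for Ccna2, 0.84 for Bub1 and 0.72 for Kif11. Osteogenic day 15 against osteogenic day 7 gave 0.84 for Uhrf1, 0.67 for Top2a and 0.79 for Kif11. Vehicle levels of these genes were lowest in adipogenic cells, where the pseudocount of 1 shrinks differences, and the part of this in the differences was not tested.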

How the results depend on the processing

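Total counts of members called stayed within 1.5 times of those reported under the alternatives not named here. Adipogenic cells against day 0 (45 lower and 2 higher) gave 29 lower and 5 higher after subtraction of the receptor gene median, and osteogenic day 15 against day 0 gave 14 lower and 14 higher under quantile scaling. Osteogenic day 7 against day 0 (13 called) gave 36 under median ratio, 38 after subtraction of the receptor gene median and 5 among VD3-treated cells when replicate 2 alone stood for day 0. Osteogenic day 15 against day 0 (24 called, mostly lower) turned mostly higher, with 18 under median ratio, 31 after subtraction, 24 among VD3-treated libraries and 17 with the lone day 0 library. Osteogenic day 15 against day 7 (16) gave 8 after subtraction, and among VD3-treated libraries 14 mostly higher. VD3 at day 0 (37) gave 15 under median ratio, 23 after subtraction and 24 in the narrow fit of the compared libraries; on osteogenic day 7 (28) 11 after subtraction; on osteogenic day 15 (0) 1 with the filter at 5 RPKM; and in adipogenic cells (1) 0 in the narrow fit. For differences of VD3 effects, osteogenic day 7 against day 0 (0) gave 1 under median ratio and 1 under quantile scaling. Adipogenic day 7 against day 0 (10) gave 6 with a pseudocount of 0.1, 1 under median ratio, 6 under quantile scaling, 1 after subtraction and 5 in the narrow fit. Adipogenic against osteogenic day 7 (7) gave 4 under quantile scaling, 3 after subtraction and 4 in the narrow fit. Osteogenic day 15 against day 7 (3) gave 8 with the filter at 5 RPKM and 0 under median ratio, after subtraction and in the narrow fit.

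Leaving out 1 library gave 9 to 13 calls for osteogenic day 15 against day 7, 24 to 39 for VD3 at day 0 (24 without VD3 replicate 2), and for the differences 0 to 1 (osteogenic day 7 against day 0), 7 to 16 (adipogenic against day 0; 16 without day 0 VD3 replicate 1), 5 to 9 (adipogenic against osteogenic day 7) and 0 to 6 (osteogenic day 15 against day 7).

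Single members that turned sign, on the log2 scale, did so mostly against day 0. Osteogenic day 7 gave Cdc6 0.57, Lig1 0.51 and Mybl2 0.52 under quantile scaling, Mcm5 0.063, Cdc6 1.19 and Lig1 0.97 after subtraction, and Cdc6 0.021 and Mybl2 0.37 with the lone day 0 library. Osteogenic day 15 gave Tk1 0.17, Foxm1 0.26 and Mybl2 0.37 under quantile scaling, Tk1 0.93 and Bub1 0.50 after subtraction, Mcm5 0.20, Ccna2 0.028, Ccnb1 0.48 and Bub1 0.19 among VD3-treated libraries, and Mcm5 0.34, Ccna2 0.15, Ccnb1 0.59, Bub1 0.40, Foxm1 0.18 and Mybl2 0.10 with the lone day 0 library. E2f1 in adipogenic cells gave 0.88 under quantile scaling and 1.25 after subtraction, and with VD3 at day 0 it gave 0.25 after subtraction. Osteogenic day 15 against day 7 gave Mcm6 0.11 and Ccnb1 0.15 among VD3-treated libraries. The causes were not tested.

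Over all genes, calls on osteogenic day 7 against day 0 were 2874 higher and 10636 lower as deposited, 6103 and 7950 under median ratio and 5431 and 3716 under quantile scaling. After subtraction of the receptor gene median 8729 of 13666 genes were higher and 1448 lower there, with 37 members higher and 1 lower. For osteogenic day 15 against day 0 subtraction gave 8545 of 13666 genes higher and 1770 lower, with 25 members higher and 6 lower. A rise after subtraction thus sets no member apart in these 2 comparisons. With VD3 at day 0 calls over all genes were 840 higher and 2328 lower as deposited, 1216 and 680 under median ratio and 1367 and 1004 under quantile scaling. With the replicate block the counts were 12, 24, 47, 16, 47 and 43 for the vehicle comparisons, 37, 29, 0 and 1 for VD3 and 0, 10, 7 and 3 for the differences, and the block moved no count by over 1.5 times; same-numbered libraries did not deviate together (correlations of -0.09 to 0.17), so the numbers were not read as pairs. Genes under about 1 RPKM rest on few reads, since 3 reads on a transcript of 1 kilobase are 0.0639 to 0.421 RPKM.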

Other observations

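The pocket proteins and MuvB subunits, which hold E2F and mitotic promoters silent in resting cells, were tested as a list of 16 genes with other E2F genes. Of these 1 fell with VD3 at day 0, the p107 gene Rbl1 (5.65 ± 0.941 RPKM with VD3 and 8.74 ± 1.28 with vehicle; log2 -0.55, SE 0.14, adjusted p = 0.0128 in limma), and 0 rose, where 11% of all genes were lower and 3.98% higher. In adipogenic vehicle cells against day 0, 9 of the list were lower and 3 higher, where 65.5% of all genes were lower and 13.2% higher. There Rb1, the retinoblastoma gene, was higher than at day 0 (9.14 ± 1.29 and 4.01 ± 0.950 RPKM; log2 1.03, SE 0.17, adjusted p = 2.05e-05 in limma), as were the MuvB subunits Lin52 (0.89) and Lin9 (0.68), while Rbl1 (-1.38) and the atypical repressors E2f7 (-1.10) and E2f8 (-1.24) were lower.

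Of 13 p53 target genes 6 rose and 1 fell with VD3 at day 0, 3 rose on osteogenic day 7 and 1 rose in each of the other 2 states. Over all genes 3.98% were higher and 11% lower with VD3 at day 0, and 2.91%, 0.526% and 1.51% were higher on osteogenic day 7, on osteogenic day 15 and in adipogenic cells. Sesn1, a stress-response gene, rose in all 4, with 45.2 ± 2.86 RPKM with VD3 and 16.6 ± 1.87 with vehicle at day 0, 32.3 ± 5.15 and 9.50 ± 1.82 on osteogenic day 7, 18.4 ± 0.493 and 7.95 ± 0.691 on osteogenic day 15, and 19.8 ± 2.30 and 10.0 ± 0.807 in adipogenic cells (adjusted p = 3.12e-08, 5.78e-09, 9.44e-06 and 4.13e-05 in limma). Gdf15, a secreted stress cytokine, rose at day 0 (25.6 ± 3.44 and 8.40 ± 1.75 RPKM; log2 1.51, SE 0.19, adjusted p = 8.67e-06 in limma) and on osteogenic day 7 (24.9 ± 6.10 and 9.68 ± 0.811 RPKM; log2 1.25, SE 0.19, adjusted p = 0.000176 in limma). Cdkn1a, the best-known p53 target, was not called with VD3 in any state. The part of p53 targets in the falls of S-phase and mitotic genes was not tested.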
